A study of Mus musculus with 12 samples.

Results

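The 8 genes described here, Nt5e, Egr2, Egr3, Rnf128, Cblb, Itch, Dgka and Dgkz, are known for T cell anergy, the unresponsive state that T cells enter when they meet antigen without adequate costimulation. They were taken by symbol from the count table, which lists 25078 genes, and each of the 8 symbols matched 1 row. All 8 had enough reads to enter every test below.

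The libraries came from donor T cells of C57BL/6 background, recovered from the liver of lethally irradiated WT BALB/c recipients on day 6 after hematopoietic cell transplantation (HCT), a model of graft-versus-host disease. The donors were WT mice, STAT3ko mice, in which floxed Stat3 is deleted by a Cre transgene under the CD4 promoter, and STAT3ko PD-1ko mice, which in addition lack PD-1 from the germline. Recipients in every group also received T cell-depleted bone marrow of WT donors. Donor cells were sorted by H-2Kb and the T cell receptor beta chain into CD4+ and CD8+ fractions, and each library pooled the cells of several recipients. Each of the 6 combinations of fraction and genotype had 2 libraries, with 21676125 to 24551477 counts per library.

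With 2 libraries against 2, no exact permutation test can give a p under 0.333, so the tests below are model-based (edgeR quasi-likelihood test, Benjamini-Hochberg adjustment over all genes tested, passed at an adjusted p under 0.05). Their p-values set a group difference against the spread between pools of a group. That spread is estimated from all libraries of a fit, with information shared across genes. The comparisons of STAT3ko and of STAT3ko PD-1ko with WT share the WT libraries, and the comparison between both knockout groups shares its libraries with each of them. Levels of 1 gene are given as CPM, its counts relative to the total of the library, scaled by the trimmed mean of M values. Sorting markers followed the labels. Cd4 stood at 1242 to 1887 CPM in the CD4+ libraries and at 0.356 to 2.74 CPM in the CD8+ libraries. Cd8a stood at 589 to 1339 CPM in the CD8+ libraries and at 0.424 to 5.64 CPM in the CD4+ libraries.

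In anergic T cells, calcium signals without a matching costimulatory signal leave NFAT active, and NFAT induces the zinc finger factors EGR2 and EGR3, which raise a set of inhibitors. Among the inhibitors, the E3 ubiquitin ligases GRAIL (Rnf128), CBL-B (Cblb) and ITCH (Itch) mark signaling proteins below the T cell receptor for removal. The diacylglycerol kinases DGK alpha (Dgka) and DGK zeta (Dgkz) convert diacylglycerol into phosphatidic acid and so limit the activation of RAS and protein kinase C. CD73, encoded by Nt5e, is a surface enzyme that forms adenosine from AMP, and together with the folate receptor FR4 (Izumo1r) it serves as a surface stain for anergic CD4+ T cells.

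The genes Nt5e, Dgka and Rnf128 passed between STAT3ko PD-1ko and STAT3ko in both fractions, so the 250 bases before a start site of each are shown, from RefSeq's promoters on GRCm38.p6, a patch of the assembly mm10, 5′ to 3′ on the gene's own strand. The window of Nt5e lies at chr9:88327359-88327608 on the plus strand, that of Rnf128 at chrX:139610370-139610619 on the plus strand and that of Dgka at chr10:128745085-128745334 on the minus strand. The windows of Nt5e and Dgka end at the gene start given in the deposited table, whereas the Rnf128 entry starts inside the gene as the table lists it. Capitals mark GGAAA or its reverse complement, the core letters read by NFAT.
Nt5e: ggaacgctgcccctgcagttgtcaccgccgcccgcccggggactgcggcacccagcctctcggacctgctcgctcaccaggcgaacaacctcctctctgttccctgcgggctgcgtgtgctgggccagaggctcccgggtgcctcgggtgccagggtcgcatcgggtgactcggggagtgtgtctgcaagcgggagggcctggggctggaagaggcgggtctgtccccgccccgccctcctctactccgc
Rnf128: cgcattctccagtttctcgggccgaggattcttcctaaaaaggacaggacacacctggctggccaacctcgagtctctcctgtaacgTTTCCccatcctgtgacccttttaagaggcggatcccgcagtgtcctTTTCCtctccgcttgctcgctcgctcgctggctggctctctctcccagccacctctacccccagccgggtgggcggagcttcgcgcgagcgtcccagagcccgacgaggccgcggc
Dgka: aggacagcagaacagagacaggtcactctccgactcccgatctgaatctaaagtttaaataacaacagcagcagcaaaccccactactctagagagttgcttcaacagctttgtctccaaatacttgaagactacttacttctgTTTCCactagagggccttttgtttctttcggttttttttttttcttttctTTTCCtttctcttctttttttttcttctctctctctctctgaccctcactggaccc

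RefSeq's promoters held an entry for 6 of the 8 genes, without Egr3 and Itch. GGAAA, searched on both strands, occurred 2 times each in the windows of Rnf128, Cblb and Dgka and in none of those of Nt5e, Egr2 and Dgkz, and 55.7% of the 32536 windows in the collection held it. The STAT letters TTCNNNGAA and the EGR letters GCGNGGGCG were found in none of the 6 windows on either strand, against 7.04% and 4.74% of all windows. G and C made up 72.00% of the Nt5e window, 63.2% of the Rnf128 window and 41.2% of the Dgka window.

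On mm10, Nt5e lies at chr9:88327609-88372089, Egr2 at chr10:67535499-67542188, Egr3 at chr14:70077317-70082613, Rnf128 at chrX:139563340-139673145, Cblb at chr16:52031549-52208046 and Itch at chr2:155133481-155226855, all on the plus strand. Dgka lies at chr10:128720136-128745084 and Dgkz at chr2:91932822-91963563, both on the minus strand. Counts were taken over the exons of each gene. Pmel overlaps Dgka on the opposite strand, with 4 to 16 counts per library, and Mir6999 overlaps Dgkz on the same strand, with 0 to 7 counts.

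The targeted genes were checked first. Stat3 read 369 and 467 CPM in the WT CD4+ libraries, 139.9 and 164 CPM in STAT3ko and 157 and 219 CPM in STAT3ko PD-1ko. In CD8+ cells Stat3 read 397 and 384 CPM in WT, 149 and 136 CPM in STAT3ko and 154 and 235 CPM in STAT3ko PD-1ko. In each fraction the knockout libraries did not overlap WT and were lower. The log2 difference from WT was -1.46 ± 0.22 (SE; adjusted p = 0.05497) in CD4+ and -1.46 ± 0.20 (adjusted p = 0.108) in CD8+ STAT3ko cells, neither of which passed, and it passed in STAT3ko PD-1ko (-1.13 ± 0.22 and -0.996 ± 0.20, adjusted p = 0.01801 and 0.0177). Pdcd1, which encodes PD-1, read 55.1 and 26.01 CPM in CD4+ and 93.6 and 65.6 CPM in CD8+ STAT3ko PD-1ko libraries, against 235 to 323 CPM and 307 to 454 CPM in the other groups. These counts cover all exons of a gene, so reads from exons outside a deleted part would stay in them. What the remaining reads came from was not tested.

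The levels of the 8 genes differed widely. By the authors' RPKM, which divides by exon length and so allows genes to be compared, the mean over 12 libraries was 148 for Dgka, 108 for Dgkz, 73.3 for Cblb, 35.6 for Itch, 9.94 for Nt5e, 7.13 for Egr3, 5.28 for Egr2 and 1.66 for Rnf128. The transcripts of both kinases and of CBL-B were thus the most abundant of the 8, and that of GRAIL the rarest, with 35 to 330 counts per library. Neighbours in this order were not all apart, since Dgka exceeded Dgkz in 9 of 12 libraries, Nt5e exceeded Egr3 in 10, and Cblb exceeded Itch, and Egr3 Egr2, in 11 each. Dgkz stood above Cblb, Itch above Nt5e and Egr2 above Rnf128 in all 12. Between the lowest and highest of the 12 libraries, CPM spanned 9.16-fold for Rnf128, 8.34-fold for Egr3, 6.405-fold for Egr2, 4.47-fold for Nt5e and 1.29-fold for Dgkz.

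**Figure D1:**
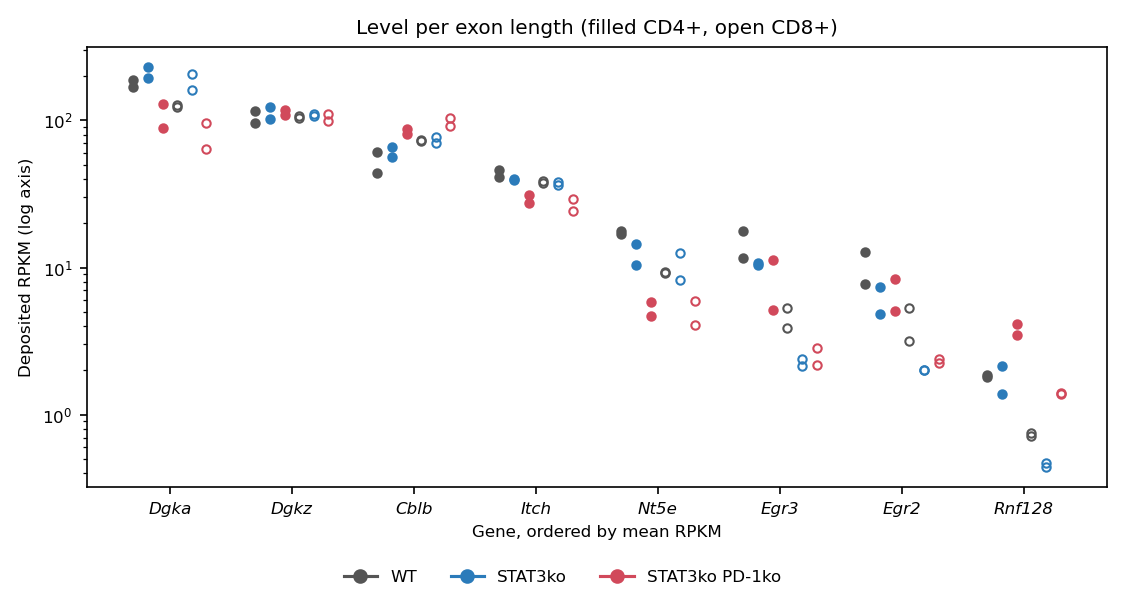
Deposited RPKM (log axis) of the 8 genes in each of 12 libraries, ordered by mean, with WT in grey, STAT3ko in blue and STAT3ko PD-1ko in red, CD4+ filled and CD8+ open. Dgka, Dgkz and Cblb lie at the top and Rnf128 at the bottom, with means from 148 down to 1.66.

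STAT3ko was first compared with WT, to see what loss of STAT3 alone did to these genes. None of the 8 passed in CD4+ cells, where 0.334% of all tested genes did, and none in CD8+ cells, where 0.0583% did. At an unadjusted p under 0.05 there were 0 of 8 in CD4+ and 4 of 8 in CD8+ cells, beside 10.5% and 11% of all genes. DESeq2 called 0 and 2, the latter being Egr2 and Egr3, beside 2.27% and 1.97% of all genes. The median log2 difference of the 8 genes was -0.083 in CD4+ and -0.024 in CD8+ cells, beside 0.011 and -0.0062 over all genes tested.

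With PD-1 absent as well, members moved in both directions. Against WT, 3 of 8 passed in CD4+ cells (1 higher, 2 lower), where 12.9% of all tested genes passed (7.21% higher, 5.65% lower). In CD8+ cells 4 of 8 passed (2 higher, 2 lower), beside 17.2% of all genes (9.01% higher, 8.21% lower). Against STAT3ko, 3 of 8 passed in CD4+ cells (1 higher, 2 lower), beside 11.1% of all genes (6.05% higher, 5.03% lower). In CD8+ cells 4 of 8 passed against STAT3ko (1 higher, 3 lower), beside 16.8% of all genes (8.76% higher, 8.05% lower). The median log2 difference of the 8 was -0.61 in CD4+ and -0.60 in CD8+ cells against WT, and -0.21 and 0.026 against STAT3ko, and that of all genes lay between -0.013 and -0.00062.

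These calls rest on few libraries and on the test, as do those of all genes. Without the first or the second STAT3ko PD-1ko library of CD4+ cells, 0 of 8 passed against WT, beside 1.2% or 0.508% of all genes, and 0 of 8 against STAT3ko, beside 0.54% or 0%. Without the second STAT3ko PD-1ko library of CD8+ cells, 0 of 8 passed against WT or STAT3ko, beside 0.903% and 0.0163% of all genes. Without the second WT library of CD8+ cells 0 of 8 passed against WT, beside 5.49%. In such fits the library left alone in its group is assumed to vary like the other groups. DESeq2 called 5 and 6 of 8 against WT in CD4+ and CD8+ cells, beside 18.1% and 22.7% of all genes, and 4 and 5 against STAT3ko, beside 17.9% and 23.9%. By DESeq2, members that missed the threshold in edgeR also passed, namely, for STAT3ko PD-1ko, Cblb and Dgka in CD4+ cells (adjusted p = 0.0158 and 0.0103) and Nt5e, Egr2 and Dgka in CD8+ cells (adjusted p = 0.006496, 0.01897 and 0.0102) against WT. Against STAT3ko, DESeq2 added Itch in CD4+ (adjusted p = 0.0298) and Cblb in CD8+ cells (adjusted p = 0.0166).

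In the sample titles, the first libraries of all groups carry 1 run of consecutive numbers and the second libraries another, and the study pooled its liver data over replicate experiments without saying which libraries came from which, so whether the runs mark those experiments is not known. With the run added to the fit as a block, here called the replicate block, 5 of 8 passed against either genotype in CD4+ cells, beside 26% of all genes against WT and 26% against STAT3ko. In CD8+ cells 6 of 8 passed against WT and 5 of 8 against STAT3ko, beside 24.7% and 24.4%. Unless DESeq2 or a block is named, calls and misses of single genes are those of edgeR without a block.

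**Figure D2:**
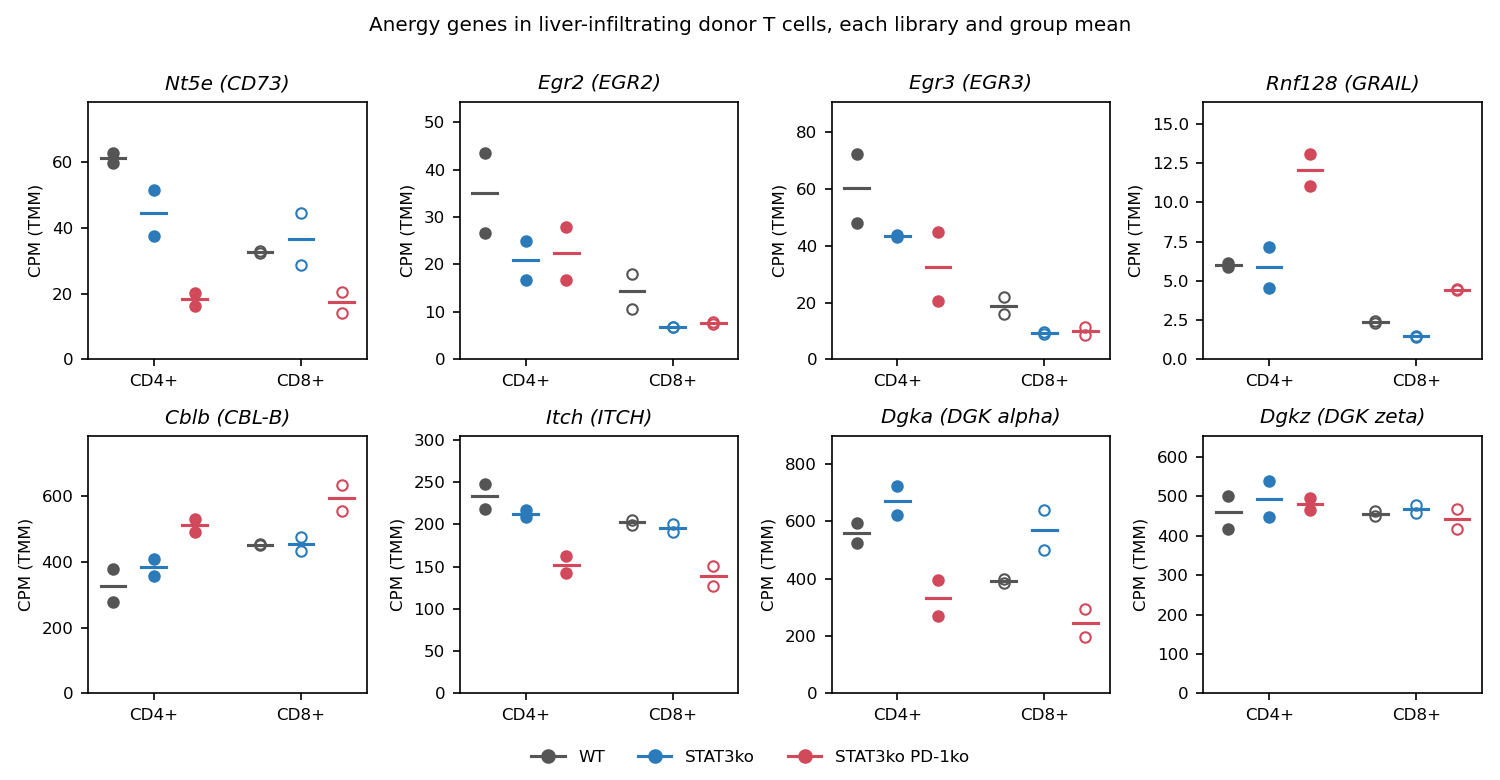
CPM scaled by the trimmed mean of M values (linear axes from 0) of each gene in each library, with circles for libraries and short lines for group means, CD4+ filled and CD8+ open, in grey for WT, blue for STAT3ko and red for STAT3ko PD-1ko. In both fractions the STAT3ko PD-1ko libraries lie below the other genotypes for Nt5e, Itch and Dgka and above them for Rnf128 and Cblb, and for Dgkz the genotypes overlap.

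**Figure D3:**
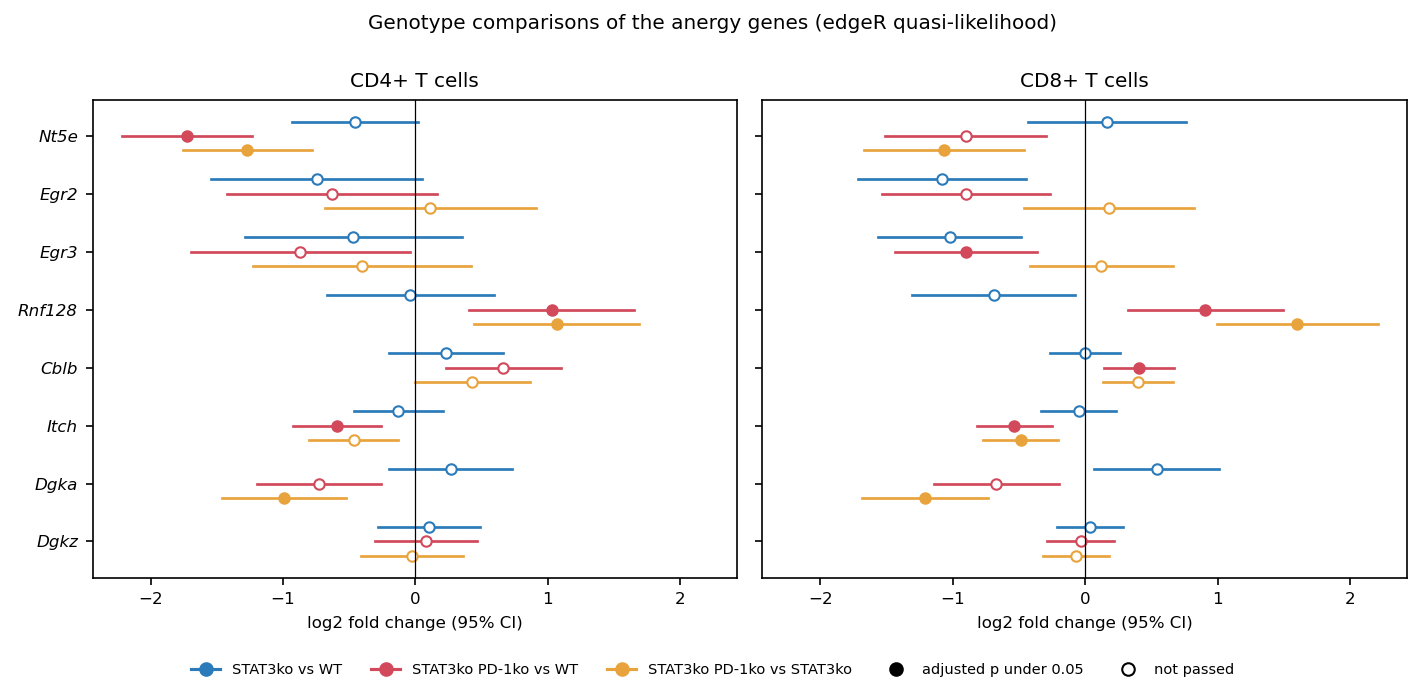
Log2 fold change with its 95% confidence interval for each gene in the 3 genotype comparisons of CD4+ and CD8+ T cells, with filled circles for an adjusted p under 0.05 and open circles for those that did not pass. None of the STAT3ko against WT circles is filled, and 3 or 4 of 8 are in each comparison of STAT3ko PD-1ko.

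Nt5e, which encodes CD73, was lower in STAT3ko PD-1ko cells. In CD4+ cells it read 62.97 and 59.7 CPM in WT, 37.5 and 51.6 CPM in STAT3ko and 16.3 and 20.2 CPM in STAT3ko PD-1ko. In CD8+ cells it read 32.9 and 32.5 CPM in WT, 28.7 and 44.5 CPM in STAT3ko and 14.1 and 20.6 CPM in STAT3ko PD-1ko. The STAT3ko PD-1ko libraries lay below all others of their fraction, the CD4+ STAT3ko libraries lay below WT, and the CD8+ STAT3ko libraries overlapped WT. In CD4+ cells Nt5e fell to 0.303 times the WT level (log2 -1.72 ± 0.21 SE, adjusted p = 0.00515) and to 0.415 times the STAT3ko level (log2 -1.27 ± 0.21, adjusted p = 0.0147). In CD8+ cells it fell to 0.478 times the STAT3ko level (log2 -1.07 ± 0.26, adjusted p = 0.0337), and the difference from WT missed the threshold (log2 -0.90 ± 0.26, adjusted p = 0.0529, 0.0155 with the replicate block). STAT3ko against WT gave -0.45 ± 0.20 in CD4+ cells (adjusted p = 0.504) and 0.16 ± 0.25 in CD8+ cells (adjusted p = 0.869). In bulk libraries, fewer cells of a type and less RNA per cell cannot be told apart.

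The calls of Nt5e were lost in fits without certain libraries, with the same direction. Without the first or second CD4+ STAT3ko PD-1ko library the log2 difference was -1.57 or -1.90 from WT (adjusted p = 0.06401 and 0.0576) and -1.12 or -1.44 from STAT3ko (adjusted p = 0.08898 and 0.117). The CD8+ difference from STAT3ko was -0.83 or -1.38 without the first or second STAT3ko PD-1ko library (adjusted p = 0.119 and 0.0948) and -0.71 without the second STAT3ko library (adjusted p = 0.147).

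CD73 is also abundant on regulatory T cells, so their 4 listed markers are given beside it. Foxp3, the defining factor of these cells, read 20.96 and 30.7 CPM in WT, 16.3 and 25.1 CPM in STAT3ko and 3.38 and 3.42 CPM in STAT3ko PD-1ko CD4+ cells (log2 -2.90 ± 0.31 SE against WT, adjusted p = 0.00395). In CD8+ cells Foxp3 read 23.8 and 13.7 CPM in WT, 18.3 and 28.8 CPM in STAT3ko and 7.29 and 8.94 CPM in STAT3ko PD-1ko (log2 -1.19 ± 0.32 against WT, adjusted p = 0.0458). Foxp3 was thus lowest in the libraries in which Nt5e was lowest. Ikzf2, which encodes Helios, also fell in CD4+ STAT3ko PD-1ko cells (log2 -1.11 ± 0.22 against WT, adjusted p = 0.0185), and Il2ra, which encodes CD25, rose against STAT3ko (0.83 ± 0.17 in CD4+ and 0.71 ± 0.13 in CD8+ cells, adjusted p = 0.0263 and 0.0143). Tnfrsf18, which encodes GITR, passed in no genotype comparison. The 4 markers summed to 394 to 510.2 CPM in CD4+ and 365 to 526 CPM in CD8+ libraries, with Il2ra the most abundant and none at 0. The part of regulatory T cells in the result for Nt5e was not tested.

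**Figure D4:**
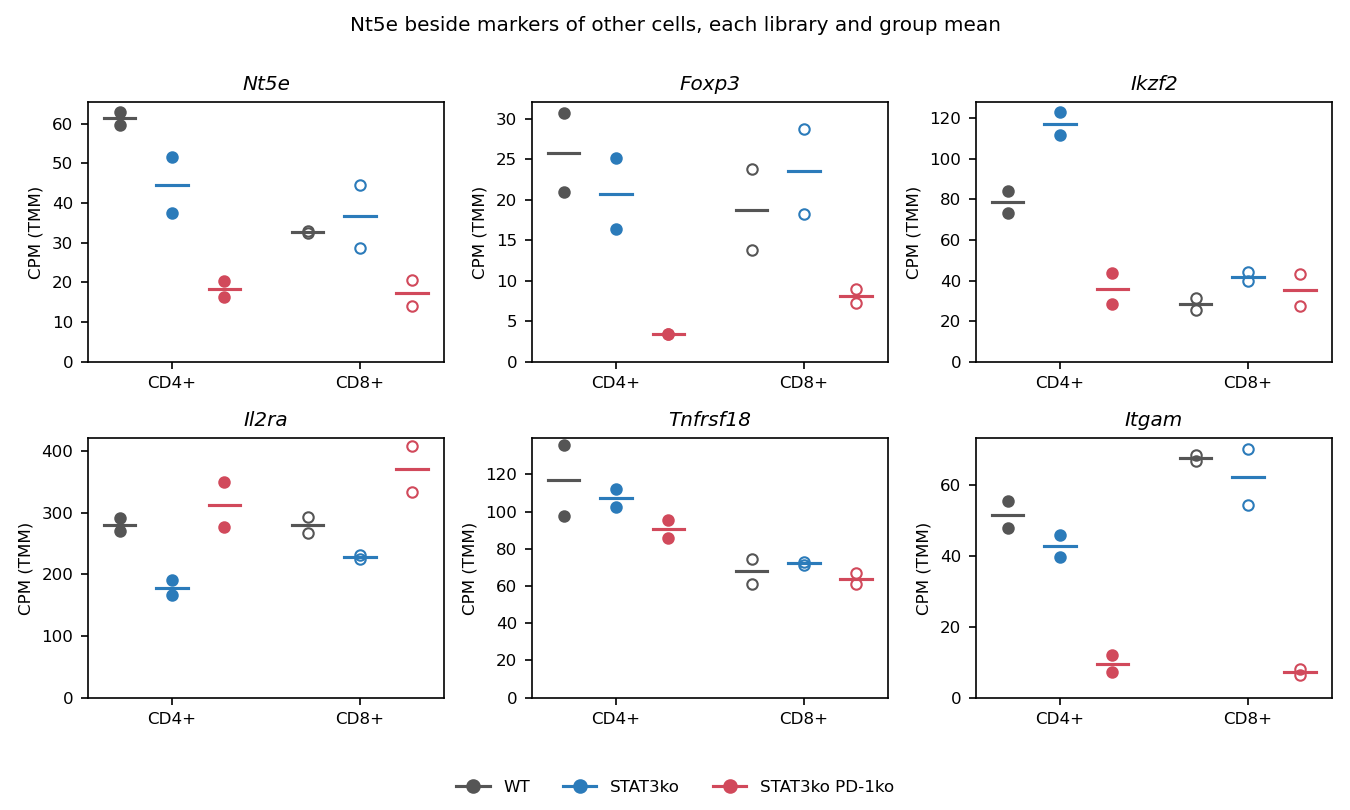
CPM of Nt5e, of the 4 regulatory T cell markers Foxp3, Ikzf2, Il2ra and Tnfrsf18 and of Itgam in each library (circles) with group means (short lines), on linear axes from 0, CD4+ filled and CD8+ open. In CD4+ STAT3ko PD-1ko cells Nt5e, Foxp3, Ikzf2, Tnfrsf18 and Itgam lie below the other genotypes, whereas Il2ra (349.5 and 277 CPM) lies above STAT3ko and overlaps WT. In CD8+ cells Il2ra lies highest in STAT3ko PD-1ko, and the Ikzf2 values of STAT3ko PD-1ko (43.4 and 27.5 CPM) overlap those of both others.

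Most markers of other cell types were low. Of 7 macrophage and monocyte markers, Itgam, an integrin that activated T cells can also carry, was the most abundant in the WT and STAT3ko libraries. In CD4+ cells Itgam read 47.6 and 55.3 CPM in WT, 39.7 and 45.7 CPM in STAT3ko and 11.99 and 7.19 CPM in STAT3ko PD-1ko. In CD8+ cells Itgam read 68.2 and 66.7 CPM in WT, 54.2 and 69.9 CPM in STAT3ko and 8.04 and 6.49 CPM in STAT3ko PD-1ko. Cd68 exceeded Itgam in the second CD4+ STAT3ko PD-1ko library (10.3 CPM) and in both CD8+ STAT3ko PD-1ko libraries (16.9 and 18.3 CPM). Itgam fell against WT in both fractions (log2 -2.41 ± 0.26 SE and -3.20 ± 0.19, adjusted p = 0.00398 and 0.000901), and Cd68 fell in CD8+ cells (-0.71 ± 0.13, adjusted p = 0.0154). The 7 markers summed to 46.6 to 69.8 CPM in WT and STAT3ko and to 18.2 and 21.1 CPM in STAT3ko PD-1ko CD4+ libraries, and to 81.7 to 102 and 25.4 and 25.4 CPM in CD8+ libraries. The macrophage-defining Csf1r and Lyz2 reached at most 1.31 and 1.198 CPM in any library, and Adgre1 was at 0 in both CD8+ STAT3ko PD-1ko libraries.

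Hepatocyte markers, 8 in all and led by Trf, summed to 1.46 to 5.22 CPM, with Trf higher in CD8+ STAT3ko PD-1ko than STAT3ko cells (log2 1.72 ± 0.48 SE, adjusted p = 0.0486), and 5 erythroid markers to at most 0.563 CPM. The 5 B cell markers, led by Cd79b, summed to 1.63 to 2.41 CPM in CD4+ and 5.31 to 14.7 CPM in CD8+ libraries, and Cd79b fell in CD8+ STAT3ko PD-1ko cells (log2 -1.18 ± 0.22 SE against WT, adjusted p = 0.0149). The 3 NK cell markers summed to 14.2 to 26.5 CPM in CD4+ libraries, led by Klrb1c, and to 29.96 to 85.95 CPM in CD8+ libraries. Of the CD8+ libraries, Eomes exceeded Klrb1c in the first of STAT3ko (32.6 against 29.1 CPM). It also did so in both of STAT3ko PD-1ko (23.65 against 22.9 and 18.7 against 11.2 CPM). Klrb1c fell in CD8+ STAT3ko PD-1ko cells against WT (-1.62 ± 0.38, adjusted p = 0.02798). Eomes, which activated T cells also express, rose in CD4+ STAT3ko PD-1ko cells (1.40 ± 0.26, adjusted p = 0.0158). The 4 endothelial markers summed to 110.4 to 198 CPM, led by Pecam1, which T cells also express. Among T cell markers, Cd4 fell in CD4+ (-0.52 ± 0.13, adjusted p = 0.0374) and Cd8a in CD8+ STAT3ko PD-1ko cells (-1.09 ± 0.12, adjusted p = 0.00414) against WT, where Cd8b1 and Cd3d also fell (-0.87 ± 0.11 and -0.67 ± 0.13, adjusted p = 0.00531 and 0.01695). The part of any of these in the results for the 8 genes was not tested.

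Of 10 listed genes that handle adenosine, 7 were tested (Adora1, Adora2b and Adora3 had too few reads), and none passed in STAT3ko against WT. In STAT3ko PD-1ko, 2 rose and 1 fell against WT in each fraction, and against STAT3ko 2 rose and 1 fell in CD4+ and 3 rose and 1 fell in CD8+ cells, with a median log2 difference of 0.093 and 0.021 against WT. Of all genes tested, 12.9% in CD4+ and 17.2% in CD8+ cells passed against WT and 11.1% and 16.8% against STAT3ko. Adk, adenosine kinase, which turns adenosine back into AMP, was at 22.04 ± 2.97 CPM (SD, n = 2) in WT, 29.7 ± 10.2 CPM in STAT3ko and 56.2 ± 4.03 CPM in STAT3ko PD-1ko CD4+ cells. It rose over WT by 1.37 ± 0.24 (SE) on the log2 scale in CD4+ (adjusted p = 0.0139) and by 0.90 ± 0.13 in CD8+ cells (adjusted p = 0.00794). The nucleoside transporter Slc29a1 (ENT1) rose over WT by 0.62 ± 0.15 in CD4+ (adjusted p = 0.0381) and 0.46 ± 0.12 in CD8+ cells (adjusted p = 0.0412).

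Dpp4 (CD26), which in humans anchors adenosine deaminase at the cell surface, fell from 208 ± 28.9 CPM (SD, n = 2) in WT to 90.5 ± 9.23 CPM in CD4+ cells (log2 -1.18 ± 0.16 SE, adjusted p = 0.00699) and from 145 ± 14.4 to 79.8 ± 5.45 CPM in CD8+ cells (log2 -0.85 ± 0.17, adjusted p = 0.0172). Adk, Slc29a1 and Dpp4 passed in the same directions against STAT3ko in both fractions, and the transporter Slc29a2 (ENT2) rose against STAT3ko in CD8+ cells (1.65 ± 0.38, adjusted p = 0.0283). Entpd1 encodes CD39, the enzyme that supplies AMP to CD73. It read 82.9 ± 11.9 CPM in WT, 129 ± 15.8 CPM in STAT3ko and 87.1 ± 17.4 CPM in STAT3ko PD-1ko CD4+ cells, and passed in no comparison (STAT3ko against WT 0.65 ± 0.19, adjusted p = 0.272).

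FR4, encoded by Izumo1r, is the partner of CD73 in the stain for anergic cells. Izumo1r read 24.6 ± 6.55 CPM (SD, n = 2) in WT, 26.00 ± 3.598 CPM in STAT3ko and 21.2 ± 0.149 CPM in STAT3ko PD-1ko CD4+ cells, and STAT3ko PD-1ko differed from STAT3ko by -0.28 ± 0.23 (SE) on the log2 scale (adjusted p = 0.453). In CD8+ cells it read 6.14 ± 0.575 CPM in WT, 4.72 ± 1.48 CPM in STAT3ko and 3.52 ± 0.102 CPM in STAT3ko PD-1ko. Izumo1r passed in no genotype comparison, and whether its change differs from that of Nt5e was not tested.

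Egr2 and Egr3 had their highest values in WT CD4+ cells. Egr2 read 26.6 and 43.5 CPM in WT, 16.8 and 24.9 CPM in STAT3ko and 28.00 and 16.8 CPM in STAT3ko PD-1ko CD4+ cells. In CD8+ cells Egr2 read 10.6 and 18.05 CPM in WT, 6.82 and 6.79 CPM in STAT3ko and 7.87 and 7.43 CPM in STAT3ko PD-1ko. Both knockout groups were below WT in CD8+ cells without overlap, whereas in CD4+ cells STAT3ko was below WT and STAT3ko PD-1ko overlapped it. Egr3 read 48.1 and 72.5 CPM in WT, 43.2 and 43.8 CPM in STAT3ko and 44.8 and 20.5 CPM in STAT3ko PD-1ko CD4+ cells. In CD8+ cells Egr3 read 15.8 and 21.8 CPM in WT, 8.76 and 9.77 CPM in STAT3ko and 11.4 and 8.69 CPM in STAT3ko PD-1ko. Both knockout groups were below WT in Egr3 in each fraction, and they overlapped each other.

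Egr3 fell in CD8+ STAT3ko PD-1ko cells to 0.536 times the WT level (log2 -0.90 ± 0.23 SE, adjusted p = 0.0373), and Egr2, with a log2 difference of -0.90 ± 0.27, missed the threshold (adjusted p = 0.0604, 0.0446 with the replicate block). STAT3ko against WT in CD8+ cells gave -1.08 ± 0.27 for Egr2 and -1.02 ± 0.23 for Egr3. Their adjusted p was 0.277 and 0.252 by edgeR, 0.151 and 0.146 with the replicate block and 0.0315 and 0.0112 by DESeq2. Between STAT3ko PD-1ko and STAT3ko the CD8+ difference was 0.18 ± 0.27 for Egr2 (95% confidence interval -0.46 to 0.82) and 0.12 ± 0.23 for Egr3 (-0.42 to 0.67). In CD4+ cells neither gene passed in any comparison, with -0.74 ± 0.34 for Egr2 and -0.47 ± 0.35 for Egr3 in STAT3ko against WT and -0.63 ± 0.34 and -0.87 ± 0.35 in STAT3ko PD-1ko against WT. The CD8+ call of Egr3 was lost without the second WT library (log2 -0.66, adjusted p = 0.177) and without the first or second STAT3ko PD-1ko library (-1.11 and -0.73, adjusted p = 0.0703 and 0.173).

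Of 10 genes of the EGR and NFAT axis, 9 were tested (Egr4 had too few reads). None passed in STAT3ko against WT. In STAT3ko PD-1ko, 1 fell in CD4+ and 3 fell in CD8+ cells against WT, 0 and 3 fell against STAT3ko, and none rose, with a median log2 difference of -0.55 and -0.48 against WT. The share of all genes that fell was 5.65% in CD4+ and 8.21% in CD8+ cells against WT and 5.03% and 8.05% against STAT3ko. Nfatc1, Nfatc2 and Nfatc3 encode NFAT proteins, which act upstream of the EGR factors. Nfatc3 fell from 911 ± 87.97 CPM (SD, n = 2) in WT to 574 ± 5.33 CPM in CD4+ cells (log2 -0.64 ± 0.13 SE, adjusted p = 0.0213). In CD8+ cells Nfatc2 fell from 239 ± 17.02 to 152 ± 15.2 CPM (log2 -0.64 ± 0.12, adjusted p = 0.0159) and Nfatc1 from 404 ± 54.9 to 289 ± 26.97 CPM (-0.48 ± 0.13, adjusted p = 0.0476). Against STAT3ko all 3 fell in CD8+ cells, by 0.65 ± 0.13, 0.65 ± 0.12 and 0.40 ± 0.11 for Nfatc1, Nfatc2 and Nfatc3 (adjusted p = 0.0201, 0.0171 and 0.0486).

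Nab1, a corepressor that binds EGR proteins, was at 255 ± 15.5 CPM (SD, n = 2) in WT, 184 ± 22.6 CPM in STAT3ko and 181 ± 3.56 CPM in STAT3ko PD-1ko CD8+ cells, and passed in STAT3ko PD-1ko against WT (-0.48 ± 0.12 SE, adjusted p = 0.0361) but not in STAT3ko against WT (-0.47 ± 0.12, adjusted p = 0.282). Its relative Nab2 passed in no comparison, with log2 differences from WT of 0.15 ± 0.30 in CD4+ and -0.029 ± 0.25 in CD8+ STAT3ko PD-1ko cells. Egr1, an immediate early gene of the same family, read 166 ± 36.95 CPM (SD, n = 2) in WT, 131 ± 62.5 CPM in STAT3ko and 93.1 ± 16.8 CPM in STAT3ko PD-1ko CD4+ cells. In CD8+ cells Egr1 read 103 ± 49.9, 62.98 ± 44.4 and 48.1 ± 0.716 CPM in the same order, and it passed in no comparison.

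Among the E3 ligases, Rnf128 rose and Itch fell. Rnf128, which encodes the membrane ligase GRAIL, read 6.14 and 5.88 CPM in WT, 7.16 and 4.54 CPM in STAT3ko and 11.04 and 13.1 CPM in STAT3ko PD-1ko CD4+ cells. Its CD8+ values were 2.31 and 2.44 CPM in WT, 1.51 and 1.43 CPM in STAT3ko and 4.42 and 4.45 CPM in STAT3ko PD-1ko. Both STAT3ko PD-1ko libraries were above every other library of their fraction, and in CD8+ cells the STAT3ko libraries were below WT. In CD4+ cells Rnf128 rose over WT (log2 1.03 ± 0.27 SE, 2.04 times, adjusted p = 0.0454) and over STAT3ko (1.07 ± 0.27, adjusted p = 0.0452). In CD8+ cells it rose over WT by 0.91 ± 0.25 (adjusted p = 0.0471) and over STAT3ko by 1.60 ± 0.26 (3.03 times, adjusted p = 0.0115). DESeq2 gave an adjusted p of 0.0644 for the CD8+ difference from WT.

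Leaving out 1 library ended most calls of Rnf128, always with the same direction. Against WT in CD4+ cells, the call was lost without the first or second WT library (log2 1.05 and 0.996, adjusted p = 0.136 and 0.1696) and without the first or second STAT3ko PD-1ko library (1.16 and 0.89, adjusted p = 0.123 and 0.236). Against STAT3ko in CD4+ cells it was lost without any of the 6 libraries but the first of STAT3ko (5 of 6 fits), with log2 differences over all 6 of 0.78 to 1.42 and adjusted p = 0.0259 to 0.269. Against WT in CD8+ cells it was lost without any 1 of the 6 libraries (0.86 to 0.94, adjusted p = 0.0781 to 0.178). Against STAT3ko in CD8+ cells it was lost without the second STAT3ko library (1.56, adjusted p = 0.0718) and without the second STAT3ko PD-1ko library (1.58, adjusted p = 0.0813).

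Itch encodes a HECT ligase that acts on signaling proteins below the T cell receptor. It read 248 and 218 CPM in WT, 216 and 209 CPM in STAT3ko and 162 and 143 CPM in STAT3ko PD-1ko CD4+ cells. In CD8+ cells Itch read 205 and 199.8 CPM in WT, 191 and 201 CPM in STAT3ko and 151 and 127 CPM in STAT3ko PD-1ko. The STAT3ko PD-1ko libraries lay below all others of their fraction. Itch fell to 0.663 times WT in CD4+ cells (log2 -0.59 ± 0.14 SE, adjusted p = 0.0374) and to 0.6897 times WT in CD8+ cells (-0.54 ± 0.12, adjusted p = 0.0258). Against STAT3ko it fell in CD8+ cells (-0.49 ± 0.12, adjusted p = 0.0367) and missed the threshold in CD4+ cells (-0.46 ± 0.14, adjusted p = 0.08004, 0.0192 with the replicate block).

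Single libraries also ended calls of Itch. Against WT in CD4+ cells the call was lost without the first or second WT library (log2 -0.51 and -0.68, adjusted p = 0.173 and 0.09403) and without the first or second STAT3ko PD-1ko library (-0.68 and -0.51, adjusted p = 0.118 and 0.226). Against WT in CD8+ cells it was lost without the first or second WT library (-0.53 and -0.57, adjusted p = 0.0836 and 0.0926) and without the second STAT3ko PD-1ko library (-0.43, adjusted p = 0.117). Against STAT3ko in CD8+ cells it was lost without the second WT library, either STAT3ko library or the second STAT3ko PD-1ko library (4 of 6 fits, with log2 differences over all 6 of -0.63 to -0.38 and adjusted p = 0.0457 to 0.193).

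Cblb encodes a RING ligase that raises the need for CD28 costimulation. It read 278 and 378 CPM in WT, 358 and 411 CPM in STAT3ko and 492 and 532 CPM in STAT3ko PD-1ko CD4+ cells. In CD8+ cells Cblb read 451 and 456 CPM in WT, 476 and 433 CPM in STAT3ko and 555 and 636 CPM in STAT3ko PD-1ko. The STAT3ko PD-1ko libraries lay above all others of their fraction, and WT and STAT3ko overlapped. Cblb rose over WT in CD8+ cells (log2 0.40 ± 0.11 SE, 1.32 times, adjusted p = 0.0492) and missed the threshold in CD4+ cells (0.66 ± 0.19, adjusted p = 0.0578, 0.00597 with the replicate block). The differences from STAT3ko were 0.43 ± 0.19 in CD4+ (adjusted p = 0.171, 0.03304 with the replicate block) and 0.40 ± 0.11 in CD8+ cells (adjusted p = 0.0504, 0.0407 with the replicate block). The CD8+ call was lost without any 1 of the 6 libraries (0.29 to 0.49, adjusted p = 0.0702 to 0.212).

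Of 16 further ubiquitin ligases and their partners, none passed in STAT3ko against WT. In STAT3ko PD-1ko against WT, 2 rose and 0 fell in CD4+ and 2 rose and 1 fell in CD8+ cells, and against STAT3ko 1 rose in each fraction, with a median log2 difference of -0.041 and -0.027 against WT. These counts were near the share of all genes that passed against WT (12.9% in CD4+ and 17.2% in CD8+ cells) and below it against STAT3ko (11.1% and 16.8%). Nedd4, a HECT ligase related to ITCH, rose over WT from 22.6 ± 4.76 to 38.7 ± 2.304 CPM (SD, n = 2) in CD4+ (log2 0.80 ± 0.19 SE, adjusted p = 0.0333) and from 72.1 ± 11.5 to 113 ± 5.39 CPM in CD8+ cells (0.66 ± 0.14, adjusted p = 0.0205). In STAT3ko it stood at 54.9 ± 4.295 CPM in CD4+ and 98.6 ± 3.52 CPM in CD8+ cells. Cblc, a relative of Cblb best known from epithelia, was near the limit of detection in WT and rose from 0.0862 ± 0.0577 to 1.98 ± 0.231 CPM in CD4+ cells (adjusted p = 0.00499) and from 0.0422 ± 0.00321 to 1.100 ± 0.118 CPM in CD8+ cells (adjusted p = 0.00613).

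Peli1, a ligase that restrains T cell activation, was at 220.3 ± 15.97 CPM (SD, n = 2) in WT, 155 ± 12.01 CPM in STAT3ko and 149.5 ± 19.7 CPM in STAT3ko PD-1ko CD8+ cells, and fell in STAT3ko PD-1ko against WT (log2 -0.55 ± 0.14 SE, adjusted p = 0.0387). STAT3ko against WT gave -0.51 ± 0.14 (adjusted p = 0.299), and STAT3ko PD-1ko against STAT3ko -0.040 ± 0.14 (adjusted p = 0.8700). Cbl, a close relative of Cblb, passed in no comparison, with log2 differences of -0.054 ± 0.19 in CD4+ and -0.13 ± 0.13 in CD8+ STAT3ko PD-1ko cells against WT.

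Dgka fell in STAT3ko PD-1ko relative to STAT3ko, and Dgkz passed in no comparison. Dgka read 595 and 523 CPM in WT, 620.4 and 721 CPM in STAT3ko and 396 and 270.1 CPM in STAT3ko PD-1ko CD4+ cells. In CD8+ cells Dgka read 397 and 385 CPM in WT, 500.4 and 638 CPM in STAT3ko and 292 and 196 CPM in STAT3ko PD-1ko. In both fractions the 3 genotypes did not overlap, with STAT3ko highest and STAT3ko PD-1ko lowest. Between STAT3ko PD-1ko and STAT3ko, Dgka fell to 0.502 times in CD4+ (log2 -0.99 ± 0.20 SE, adjusted p = 0.0263) and to 0.431 times in CD8+ cells (-1.21 ± 0.20, adjusted p = 0.0125). Against WT, STAT3ko PD-1ko gave -0.73 ± 0.20 in CD4+ (adjusted p = 0.0545, 0.0182 with the replicate block) and -0.67 ± 0.20 in CD8+ cells (adjusted p = 0.0601, 0.0518 with the replicate block). STAT3ko against WT gave 0.27 ± 0.20 in CD4+ (adjusted p = 0.739) and 0.54 ± 0.20 in CD8+ cells (adjusted p = 0.397). The CD4+ call was lost without the second STAT3ko library (-0.87, adjusted p = 0.0618) and without the first or second STAT3ko PD-1ko library (-1.29 and -0.75, adjusted p = 0.0557 and 0.188). The CD8+ call was lost without the second STAT3ko PD-1ko library (-0.96, adjusted p = 0.08299).

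Dgkz read 418 and 502 CPM in WT, 448 and 538 CPM in STAT3ko and 464 and 495 CPM in STAT3ko PD-1ko CD4+ cells. In CD8+ cells Dgkz read 463 and 448 CPM in WT, 458 and 478 CPM in STAT3ko and 416 and 467 CPM in STAT3ko PD-1ko. The genotypes overlapped in both fractions. Its log2 difference between STAT3ko PD-1ko and WT had a 95% confidence interval of -0.30 to 0.47 in CD4+ and -0.28 to 0.22 in CD8+ cells. Differences within these bounds are not excluded.

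Of 16 further genes of diacylglycerol signaling 14 were tested (Dgkb and Dgkk had too few reads), and none passed in STAT3ko against WT. In STAT3ko PD-1ko, 3 fell against WT and 3 fell and 1 rose against STAT3ko in CD4+ cells. In CD8+ cells 5 fell against WT and 4 fell and 1 rose against STAT3ko, with a median log2 difference against WT of -0.25 in CD4+ and -0.16 in CD8+ cells. Among all genes, 5.65% fell against WT and 5.03% against STAT3ko in CD4+ cells, and 8.21% and 8.05% in CD8+ cells. Rasgrp1, the diacylglycerol-activated exchange factor for RAS, was at 512 ± 25.6 CPM (SD, n = 2) in WT, 391 ± 0.225 CPM in STAT3ko and 266 ± 11.2 CPM in STAT3ko PD-1ko CD4+ cells. In CD8+ cells Rasgrp1 was at 311 ± 9.99, 234 ± 0.613 and 149 ± 4.54 CPM in the same order. It fell against WT by 0.92 ± 0.13 (SE) in CD4+ and by 1.05 ± 0.10 in CD8+ cells on the log2 scale (adjusted p = 0.00772 and 0.00294).

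Prkcq, which encodes protein kinase C theta, fell against WT by 0.64 ± 0.14 (SE) in CD4+ and by 0.68 ± 0.11 in CD8+ cells on the log2 scale (adjusted p = 0.0263 and 0.0108). Prkcb, which encodes protein kinase C beta, fell by 0.67 ± 0.15 and by 0.89 ± 0.10 (adjusted p = 0.0293 and 0.00466). Rasgrp1, Prkcq and Prkcb also fell against STAT3ko in both fractions. Prkcq, and Plcg1, Dgkd and Dgkh among the next, were chosen for naming after their values were seen. In CD8+ cells Plcg1, whose product forms diacylglycerol, fell against WT (-0.56 ± 0.16, adjusted p = 0.0484), as did the kinase Dgkd (-0.36 ± 0.098, adjusted p = 0.04401), and the kinase Dgkh fell against STAT3ko (-0.55 ± 0.12, adjusted p = 0.0241). The rare kinase Dgki was lowest in STAT3ko. It was at 2.32 ± 0.00715 CPM (SD, n = 2) in WT, 0.5702 ± 0.0738 CPM in STAT3ko and 3.57 ± 0.217 CPM in STAT3ko PD-1ko CD4+ cells, and at 0.569 ± 0.0135, 0.146 ± 0.0241 and 1.55 ± 0.693 CPM in CD8+ cells. Dgki passed in STAT3ko PD-1ko against STAT3ko (2.65 ± 0.32 SE in CD4+ and 3.37 ± 0.55 in CD8+ cells, adjusted p = 0.00755 and 0.0116) and not against WT (0.64 ± 0.28 and 1.46 ± 0.46, adjusted p = 0.179 and 0.0689).

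**Figure D5:**
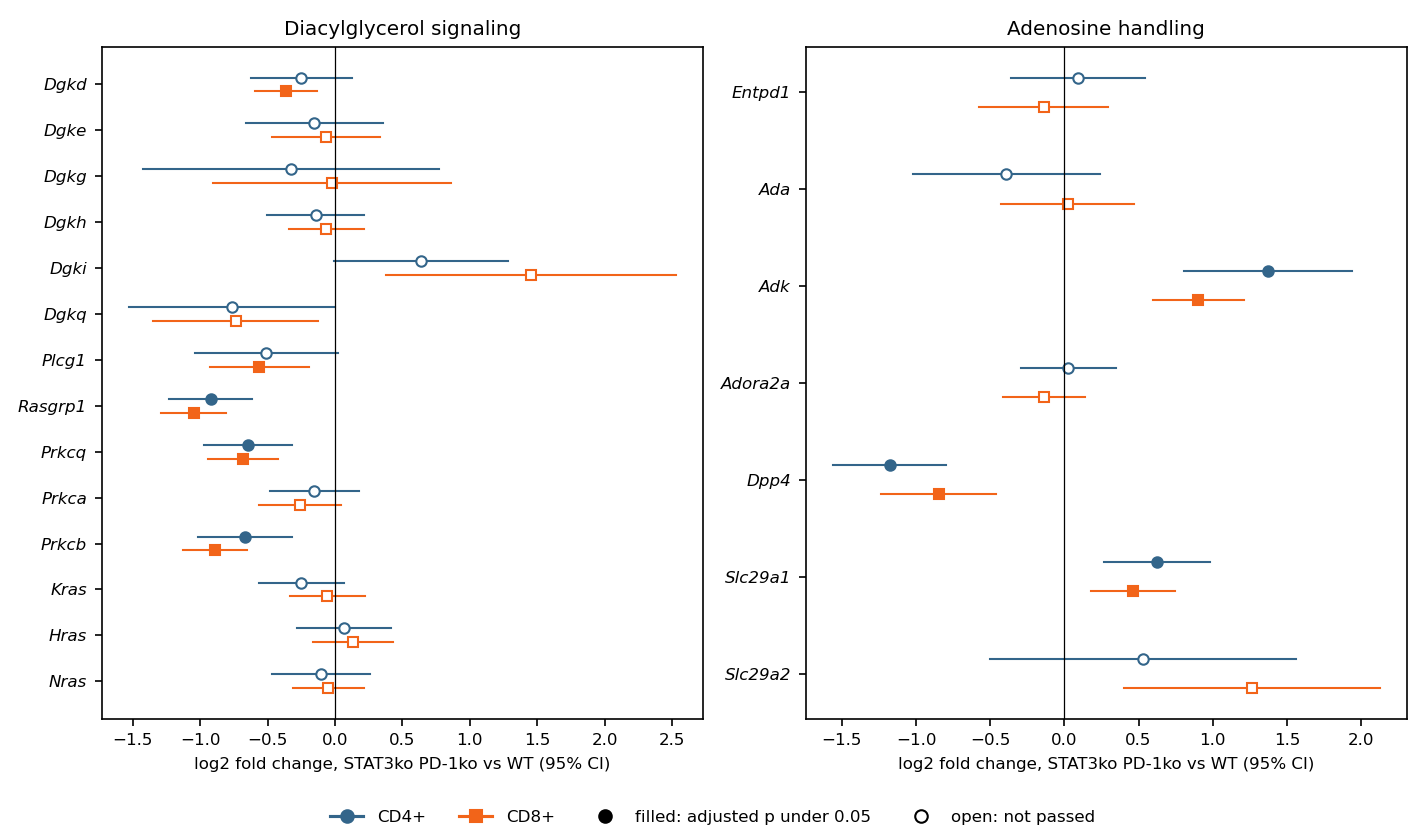
Log2 fold change of STAT3ko PD-1ko against WT with its 95% confidence interval for the tested genes of diacylglycerol signaling and of adenosine handling, CD4+ as circles and CD8+ as squares, filled where the adjusted p was under 0.05. Rasgrp1, Prkcq, Prkcb and Dpp4 are filled below 0 and Adk and Slc29a1 above 0 in both fractions.

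Of 12 other genes known for anergy, all tested, none passed in STAT3ko against WT, and 1 rose and 2 fell in CD4+ cells of STAT3ko PD-1ko against either other genotype. In CD8+ cells 1 rose and 3 fell against WT and 2 rose and 2 fell against STAT3ko, and the median log2 difference against WT was -0.20 in CD4+ and -0.35 in CD8+ cells. For comparison, 12.9% in CD4+ and 17.2% in CD8+ cells of all genes passed against WT, and 11.1% and 16.8% against STAT3ko. Ndrg1, described as an anergy factor in T cells, was at 33.4 ± 5.18 CPM (SD, n = 2) in WT, 23.4 ± 1.11 CPM in STAT3ko and 99.1 ± 9.63 CPM in STAT3ko PD-1ko CD4+ cells, and rose over WT (log2 1.59 ± 0.17 SE, adjusted p = 0.00408). In CD8+ cells Ndrg1 was at 52.5 ± 0.359, 46.4 ± 6.400 and 132 ± 6.397 CPM in the same order (1.34 ± 0.13 over WT, adjusted p = 0.00278). Dtx1, which encodes the ligase Deltex1, an NFAT target, moved the other way. It fell from 200.2 ± 11.9 CPM in WT to 119 ± 17.95 CPM in CD4+ (-0.73 ± 0.18, adjusted p = 0.0361) and from 91.03 ± 21.5 to 23.1 ± 3.73 CPM in CD8+ cells (-1.97 ± 0.19, adjusted p = 0.00278).

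Cdkn1b, which encodes the cell cycle inhibitor p27Kip1, fell against WT by 0.71 ± 0.15 (SE) in CD4+ and 0.78 ± 0.11 in CD8+ cells on the log2 scale (adjusted p = 0.0245 and 0.00799). Lag3, an inhibitory receptor, was at 309.8 ± 13.6 CPM (SD, n = 2) in WT, 236 ± 6.06 CPM in STAT3ko and 208 ± 4.16 CPM in STAT3ko PD-1ko CD8+ cells, and fell in the last against WT (-0.56 ± 0.10 SE, adjusted p = 0.0138). In CD4+ cells Lag3 was lowest in STAT3ko, at 205.7 ± 31.88, 117.3 ± 19.45 and 175.7 ± 24.6 CPM in the same order.

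Cytokine genes that anergic T cells silence were tested for 6 genes in CD4+ and 4 in CD8+ cells, where Il2 and Il4 had too few reads. None passed in STAT3ko against WT, with a median log2 difference of -0.98 in CD4+ and -0.27 in CD8+ cells. In STAT3ko PD-1ko, 2 of 6 fell against WT in CD4+ cells (5.65% of all genes did) and 1 of 4 rose against STAT3ko in CD8+ cells (8.76% did). In STAT3ko PD-1ko CD4+ cells, Il2 fell from 5.16 ± 0.228 CPM (SD, n = 2) in WT to 1.54 ± 0.767 CPM (-1.73 ± 0.45 SE, adjusted p = 0.0452), with 1.66 ± 0.844 CPM in STAT3ko. Cd40lg, which encodes the helper ligand CD154, fell from 178 ± 19.8 to 86.97 ± 14.6 CPM (-1.01 ± 0.20, adjusted p = 0.01997), with 123 ± 26.7 CPM in STAT3ko. In CD8+ cells Csf2, which encodes GM-CSF, rose over STAT3ko from 3.43 ± 2.48 to 13.8 ± 6.48 CPM (2.02 ± 0.53, adjusted p = 0.0411).

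Egr2, Egr3 and Rnf128 were lower in CD8+ than in CD4+ cells in each genotype, and no CD8+ library reached a CD4+ library of the same genotype. In WT 4 of 8 genes passed, all lower, beside 10.5% of all genes tested (5.59% lower). In STAT3ko 3 of 8 passed, all lower, beside 9.62% (4.82% lower), and in STAT3ko PD-1ko 3 of 8, all lower, beside 4.14% (2.5% lower). In WT, STAT3ko and STAT3ko PD-1ko in turn, the log2 difference of Egr2 was -1.29 ± 0.34 (SE), -1.62 ± 0.35 and -1.55 ± 0.35 (adjusted p = 0.0364, 0.0167 and 0.0339). That of Egr3 was -1.68 ± 0.34, -2.23 ± 0.35 and -1.70 ± 0.34 (adjusted p = 0.0105, 0.00331 and 0.0208). That of Rnf128 was -1.34 ± 0.24, -1.99 ± 0.25 and -1.44 ± 0.23 (adjusted p = 0.00626, 0.001095 and 0.00729). Nt5e was lower in CD8+ cells of WT (-0.91 ± 0.24, adjusted p = 0.0406), and its fractions overlapped in STAT3ko (-0.28 ± 0.24) and STAT3ko PD-1ko (-0.075 ± 0.25).

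CD8+ and CD4+ cells of 1 pool came from the same livers, so the comparison was also fitted with the pool as a block, which raised the number of genes called to 2991 in WT, 3077 in STAT3ko and 1774 in STAT3ko PD-1ko (24.3%, 24.9% and 14.4% of all genes). With the pool as a block, Cblb was higher in CD8+ cells of WT (log2 0.48, adjusted p = 0.0205, against 0.0895 without it). Dgka was then lower in CD8+ cells of WT (-0.51, adjusted p = 0.00233) and STAT3ko PD-1ko (-0.45, adjusted p = 0.00727). Nt5e and Egr2 in WT passed with smaller p-values than without the block (-0.91 and -1.29, adjusted p = 0.000373 and 0.00108). Nt5e did not pass under the block in STAT3ko (-0.30, adjusted p = 0.0574). By pool, Nt5e read 28.7 and 44.5 CPM in CD8+ against 37.5 and 51.6 CPM in CD4+ cells of STAT3ko. In STAT3ko PD-1ko it read 14.1 and 20.6 CPM against 16.3 and 20.2 CPM. The members that passed numbered 6 in WT, 3 in STAT3ko and 4 in STAT3ko PD-1ko under the block.

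Without the block, leaving out 1 library could end a call between fractions. In STAT3ko, Egr3 and Rnf128 passed without any 1 of the 12 libraries (-2.33 to -2.15 and -2.28 to -1.64), while the call of Egr2 was lost without the second CD4+ STAT3ko library (-1.30, adjusted p = 0.102) and without either CD8+ STAT3ko library (-1.61 and -1.63, adjusted p = 0.106 and 0.0987). In WT, the call of Rnf128 was lost without the first CD8+ WT library (-1.30, adjusted p = 0.0564) and that of Egr3 without the second CD4+ or first CD8+ WT library (-1.36 and -1.46, adjusted p = 0.07601 and 0.0944). Also in WT, the call of Egr2 was lost in 6 of 12 fits, those without the second CD4+ or first CD8+ WT library or any CD8+ library of either knockout (-1.74 to -0.90 over the 12). That of Nt5e was lost in 6 of 12, those without any WT library or either CD4+ STAT3ko PD-1ko library (-0.95 to -0.86).

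In STAT3ko PD-1ko, the call of Egr3 between fractions was lost in 3 of 12 fits, those without the first CD4+ or either CD8+ STAT3ko PD-1ko library (-2.15 to -1.04 over the 12). That of Rnf128 was lost in 3 of 12, those without the second CD4+ or either CD8+ STAT3ko PD-1ko library (-1.57 to -1.30). That of Egr2 was lost in 5 of 12, those without the first CD4+ STAT3ko PD-1ko library or any CD8+ library of either knockout (-1.86 to -1.14).

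Whether a genotype difference depended on the fraction was tested over all 12 libraries. None of the 8 genes passed for STAT3ko against WT (0% of all genes called), STAT3ko PD-1ko against WT (0.00811%) or STAT3ko PD-1ko against STAT3ko (0%), and DESeq2 called 0 of 8 in each (0.0405%, 0.608% and 0.197% of all genes). With the pool of recipients as a block, edgeR also called 0 of 8 in each, while it called 0, 84 and 22 of all genes. At an unadjusted p under 0.05, without the block, the counts were 0, 1 and 0 of 8, beside 1.85%, 4.43% and 3.59% of all genes. Nt5e in STAT3ko PD-1ko against WT had an edgeR log2 difference 0.83 ± 0.35 higher in CD8+ than in CD4+ cells (unadjusted p = 0.0374, adjusted p = 1.000).

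The gene most like each member was found by the Pearson correlation of log2 CPM over the 12 libraries among abundant genes, a description of libraries that share genotype and fraction. It was Vsir, which encodes the inhibitory receptor VISTA, for Nt5e (r = 0.965), Abi2 for Rnf128 (r = 0.9504), E2f7 for Cblb (r = 0.9595), Flot1 for Itch (r = 0.985), Crlf3 for Dgka (r = 0.9902) and Zfp865 for Dgkz (r = 0.893). Egr2 and Egr3 were most like each other (r = 0.965). Among the members, Nt5e, Itch and Dgka correlated with each other (r = 0.863 for Nt5e and Itch, 0.774 for Nt5e and Dgka, 0.882 for Itch and Dgka) and inversely with Cblb (r = -0.829, -0.918 and -0.804).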

How the data were processed

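RNA was sequenced from sorted donor T cells in 12 libraries, 2 for each of WT, STAT3ko and STAT3ko PD-1ko in the CD4+ and CD8+ fractions. The authors aligned reads with STAR to the mouse genome (GRCm38, mm10), counted them per RefSeq gene with HTSeq-count and deposited raw counts, and they also deposited RPKM values, for which the library size used is not given in the sources used here. Whether the counting used strand is not given in the sources used here.

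Counts were tested with edgeR 4.0.16 (R 4.3.3): filterByExpr with a minimum count of 10, normalization by the trimmed mean of M values, quasi-likelihood tests and Benjamini-Hochberg adjustment at 0.05. The 6 libraries of a fraction shared 1 fit (11959 genes in CD4+, 12002 in CD8+), and the comparisons between fractions used all 12 libraries (12334 genes). The deposited RPKM served to compare levels between genes and, as log2(RPKM + 1) with limma 3.58.1, as an alternative. Others were DESeq2 1.42.0, its size factors, no expression filter, blocks, the 4 compared libraries and each library left out.

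CD4+ and CD8+ libraries of 1 pool came from the same livers by the study's methods, and their deviations from the group means correlated across genes (r = 0.588 in WT, 0.583 in STAT3ko and 0.646 in STAT3ko PD-1ko), so the pool was used as a block in an alternative fit between fractions. No pair of libraries of a group agreed within sampling noise.

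The 8 genes and the gene lists were chosen with earlier results of these data known. All 8 genes, Stat3, Pdcd1, Izumo1r, Egr1, Nab2, Cbl and Entpd1 were named whatever their values, and of each list those that passed in a genotype comparison, where 6 or fewer did, otherwise the 2 largest rises and falls, with 4 genes of diacylglycerol signaling named beyond this. The values of 1 gene that the list counts include are not reported here. No deposited columns of samples were left unused. Figures were drawn with matplotlib 3.10.9.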

Additional observations from a re-analysis of the deposited data

How the results depend on the processing

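Under the other settings, the members' calls that were lost kept their direction and those gained had the direction of the reported value. Of the calls in the report, Cblb in CD8+ STAT3ko PD-1ko against WT was lost with DESeq2's size factors in edgeR (0.39, adjusted p = 0.0548), with the 4 compared libraries alone (0.40, adjusted p = 0.0722) and with limma on log2(RPKM + 1) (0.42, adjusted p = 0.0686). Rnf128 in the same comparison was lost with DESeq2 (0.90, adjusted p = 0.0644) and with the 4 libraries (0.91, adjusted p = 0.0726), and in CD4+ STAT3ko PD-1ko against STAT3ko with the 4 libraries (1.07, adjusted p = 0.0529). Itch was lost with limma in CD4+ cells against WT (-0.56, adjusted p = 0.0536) and in CD8+ cells against STAT3ko (-0.46, adjusted p = 0.05698). Other settings also made calls that are not among those in the report. With DESeq2 they were Cblb and Dgka for STAT3ko PD-1ko against WT in CD4+ cells (adjusted p = 0.0158 and 0.0103), Itch for STAT3ko PD-1ko against STAT3ko in CD4+ cells (adjusted p = 0.0298), Egr2 and Egr3 for STAT3ko against WT in CD8+ cells (adjusted p = 0.0315 and 0.0112), Nt5e, Egr2 and Dgka for STAT3ko PD-1ko against WT in CD8+ cells (adjusted p = 0.006496, 0.01897 and 0.0102) and Cblb for STAT3ko PD-1ko against STAT3ko in CD8+ cells (adjusted p = 0.0166). With its size factors in edgeR they were Nt5e for STAT3ko PD-1ko against WT in CD8+ cells (adjusted p = 0.0493). With every gene that had a count they were Cblb and Dgka for STAT3ko PD-1ko against WT in CD4+ cells (adjusted p = 0.03098 and 0.0222) and Nt5e, Egr2 and Dgka for STAT3ko PD-1ko against WT in CD8+ cells (adjusted p = 0.0114, 0.0248 and 0.0161). With the replicate block they were Cblb and Dgka for STAT3ko PD-1ko against WT in CD4+ cells (adjusted p = 0.00597 and 0.0182), Cblb and Itch for STAT3ko PD-1ko against STAT3ko in CD4+ cells (adjusted p = 0.03304 and 0.0192), Nt5e and Egr2 for STAT3ko PD-1ko against WT in CD8+ cells (adjusted p = 0.0155 and 0.0446) and Cblb for STAT3ko PD-1ko against STAT3ko in CD8+ cells (adjusted p = 0.0407). With the 4 libraries they were Cblb and Dgka for STAT3ko PD-1ko against WT in CD4+ cells (adjusted p = 0.0401 and 0.0335) and Nt5e and Dgka for STAT3ko PD-1ko against WT in CD8+ cells (adjusted p = 0.0213 and 0.03803).

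DESeq2 called 271 genes for STAT3ko against WT in CD4+ cells and 218 in CD8+ cells (members 2), and 2100 for STAT3ko PD-1ko against STAT3ko in CD4+ cells, where 2165 genes and 5 members passed against WT. For the differences between fractions it called 5, 75 and 21 genes (STAT3ko against WT, STAT3ko PD-1ko against WT and against STAT3ko). With every gene that had a count, 165 and 66 genes passed for STAT3ko against WT in CD4+ and CD8+ cells, 5 and 7 members for STAT3ko PD-1ko against WT (beside 10.9% and 13.8% of all genes), and 50 and 9 genes for the last 2 differences between fractions. With the 4 compared libraries alone, 1 and 0 genes passed for STAT3ko against WT, and 5 members in CD4+ STAT3ko PD-1ko against WT (beside 16.5% of all genes). The causes were not tested.

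Within a fraction the replicate number, like the 2 runs of numbers in the sample titles, is shared by the groups but not stated to pair these libraries. Same-numbered libraries deviated together with r = 0.6301, 0.303 and 0.199 across genes in CD4+ and 0.652, 0.1604 and 0.0601 in CD8+ cells. With the replicate block, 303, 3104 and 3105 genes were called in CD4+ cells (STAT3ko against WT, STAT3ko PD-1ko against WT and against STAT3ko) and 9, 2965 and 2932 in CD8+ cells, with 0, 5 and 5 and 0, 6 and 5 members. With the pool of recipients as the replicate block, 2991, 3077 and 1774 genes differed between fractions in WT, STAT3ko and STAT3ko PD-1ko, and 84 and 22 in the change of STAT3ko PD-1ko from WT and from STAT3ko. It changed no other members' calls than those given in the report.

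The 2 reversals outside left-out libraries concern values near 0 that were not called, Dgkz in CD4+ STAT3ko PD-1ko against STAT3ko (0.0095 with limma on RPKM) and the difference between fractions of Egr3 in STAT3ko PD-1ko against WT (0.046 with the pool as a block).

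With each library left out in turn, where the library left alone in its group is assumed to vary like the other groups, the genes called ranged over 1 to 49 for STAT3ko against WT in CD4+ cells, 62 to 1947 for STAT3ko PD-1ko against WT in CD4+ cells, 0 to 1212 for STAT3ko PD-1ko against STAT3ko in CD4+ cells, 0 to 2 for STAT3ko against WT in CD8+ cells, 111 to 1908 for STAT3ko PD-1ko against WT in CD8+ cells, 2 to 1878 for STAT3ko PD-1ko against STAT3ko in CD8+ cells, 611 to 1320 for CD8+ against CD4+ in WT, 428 to 1135 for CD8+ against CD4+ in STAT3ko, 163 to 505 for CD8+ against CD4+ in STAT3ko PD-1ko and 1 to 9 for STAT3ko PD-1ko against WT, CD8+ minus CD4+. Members called ranged over 0 to 5 for STAT3ko PD-1ko against WT in CD4+ cells, 0 to 3 for STAT3ko PD-1ko against STAT3ko in CD4+ cells, 0 to 4 for STAT3ko PD-1ko against WT in CD8+ cells, 0 to 4 for STAT3ko PD-1ko against STAT3ko in CD8+ cells, 0 to 4 for CD8+ against CD4+ in WT and 0 to 3 for CD8+ against CD4+ in STAT3ko PD-1ko.

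No called member changed direction with a library left out. Of those not called, the log2 differences that crossed 0 ranged as follows. For STAT3ko against WT in CD4+ cells, Rnf128 ranged over -0.39 to 0.25 and Dgkz over -0.044 to 0.24. For STAT3ko PD-1ko against WT in CD4+ cells, Dgkz ranged over -0.054 to 0.22. For STAT3ko PD-1ko against STAT3ko in CD4+ cells, Egr2 ranged over -0.29 to 0.44, Egr3 over -1.06 to 0.050 and Dgkz over -0.16 to 0.13. For STAT3ko against WT in CD8+ cells, Nt5e ranged over -0.20 to 0.45 and Cblb over -0.060 to 0.062. For STAT3ko PD-1ko against WT in CD8+ cells, Dgkz ranged over -0.13 to 0.035. For STAT3ko PD-1ko against STAT3ko in CD8+ cells, Egr3 ranged over -0.093 to 0.29. For CD8+ against CD4+ in WT, Dgkz ranged over -0.13 to 0.12. For CD8+ against CD4+ in STAT3ko, Nt5e ranged over -0.65 to 0.0049 and Dgkz over -0.22 to 0.065. For CD8+ against CD4+ in STAT3ko PD-1ko, Nt5e ranged over -0.38 to 0.18. For STAT3ko against WT, CD8+ minus CD4+, Egr2 ranged over -0.72 to 0.12, Itch over -0.016 to 0.18 and Dgkz over -0.20 to 0.078. For STAT3ko PD-1ko against WT, CD8+ minus CD4+, Egr2 ranged over -0.65 to 0.20, Egr3 over -0.47 to 0.64, Rnf128 over -0.23 to 0.031, Itch over -0.052 to 0.18, Dgka over -0.24 to 0.36 and Dgkz over -0.23 to 0.019. For STAT3ko PD-1ko against STAT3ko, CD8+ minus CD4+, Nt5e ranged over -0.091 to 0.58, Egr2 over -0.24 to 0.48, Cblb over -0.12 to 0.089, Itch over -0.13 to 0.10, Dgka over -0.51 to 0.087 and Dgkz over -0.18 to 0.10.

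With 2 libraries a group, each a pool, only differences large against the spread between pools can pass, and Rnf128 and the Egr genes rest on the fewest counts.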
